A study of Mus musculus with 18 samples.

Results

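Autophagy is the route by which cells enclose cytoplasm in a double membrane, the autophagosome, and deliver it to lysosomes for breakdown. A kinase complex around ULK1 starts the process, a lipid kinase complex that contains Beclin 1 marks the membrane, ATG9A vesicles and WIPI proteins help it to grow, and the enzymes ATG7 and ATG5 take part in attaching small ubiquitin-like proteins of the ATG8 family to it. In neurons the pathway clears protein aggregates and worn organelles along the axon, and it is known to be held back by mTORC1, a kinase that phosphorylates ULK1. The genes described here are 10 of these core components: Ulk1, Becn1, Atg9a, Wipi2, Atg5, Atg7, Map1lc3a, Map1lc3b, Gabarapl1 and Sqstm1. They were chosen by name, each name matched 1 row of the count table, and they are 10 of its 55487 genes. All 10 passed the filter on low counts, which left 17414 genes for testing.

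The counts came from frontal cortex RNA of 18 mice, aged 9 to 10 months. Each of the 3 genotypes had 3 females and 3 males. Per the study's methods, every mouse was homozygous for a floxed allele of the β-subunit of farnesyltransferase (FT), the enzyme that attaches a farnesyl lipid to proteins such as H-Ras and Rheb. WT mice carried neither transgene and no Cre in that account, whereas the deposited record calls them C57BL/6J, so their background is not settled here. APP/PS1 mice carried the transgenes of this amyloid plaque model and no Cre. APP/PS1/FTnKO mice carried the same transgenes and a Cre driven by the CaMKIIα promoter, which deletes FT after birth in forebrain neurons but leaves it in glia and other cells of the tissue. The study asked what neuronal FT does in this model, with mTORC1 signaling among its readouts, and the 3 comparisons here are APP/PS1/FTnKO against APP/PS1, APP/PS1 against WT and APP/PS1/FTnKO against WT.

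Total counts per mouse lay between 15925432 and 21030935. WT mouse 19622, a female, stood apart from the other 17 mice and was left out of the fits unless stated. The summed level of 8 cerebellar markers was 2844 CPM (counts scaled to a common library size) in this mouse and 40.0 to 70.6 CPM in the others, and that of 7 markers of cortical excitatory neurons was 554 CPM against 3236 to 6265 CPM, so its library did not match its label of frontal cortex. All levels below are CPM after TMM scaling, and the mean ± SD is over 5 WT, 6 APP/PS1 and 6 APP/PS1/FTnKO mice. Fntb, the gene of the deleted subunit, had a lowest, median and highest level of 14.1, 16.9 and 32.2 CPM in WT, 14.2, 15.8 and 32.1 CPM in APP/PS1 and 7.84, 12.6 and 14.7 CPM in APP/PS1/FTnKO mice. Its log2 fold change in APP/PS1/FTnKO against APP/PS1 was -0.77 (SE 0.26), and it did not pass the test (edgeR quasi-likelihood test, adjusted p = 0.251). App was 1534 ± 51.2 CPM in WT, 2897 ± 283 CPM in APP/PS1 and 2972 ± 517 CPM in APP/PS1/FTnKO mice, and Prnp, whose promoter drives the transgenes, was 702 ± 41.0, 2118 ± 124 and 2192 ± 317 CPM. The groups of both genes did not overlap between WT and either transgenic genotype.

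Of the 10 genes, 3 encode members of the ATG8 family: Map1lc3a and Map1lc3b of the LC3 branch and Gabarapl1 of the GABARAP branch. These proteins are cut near their C terminus, which exposes a glycine to which the lipid is attached. The ends of the 3 coding sequences are shown because the comparison of closely related genes depends on whether reads can be told apart. They are from GRCm38 transcripts, on the plus strand, and the capitals mark the codon of that glycine, which is codon 120 in Map1lc3a and Map1lc3b and codon 116 in Gabarapl1. Map1lc3a lies at chr2:155277542-155277637 and Map1lc3b at chr8:121596663-121596770, each within 1 exon, and the Gabarapl1 stretch is spliced from 2 exons between chr6:129538659-129541167.
Map1lc3a: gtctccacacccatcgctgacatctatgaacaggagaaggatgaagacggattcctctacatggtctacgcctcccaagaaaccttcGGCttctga
Map1lc3b: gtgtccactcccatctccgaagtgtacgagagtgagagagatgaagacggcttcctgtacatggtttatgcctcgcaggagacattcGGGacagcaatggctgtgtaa
Gabarapl1: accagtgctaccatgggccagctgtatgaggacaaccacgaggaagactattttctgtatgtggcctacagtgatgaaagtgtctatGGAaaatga
The stretches differ in length after the glycine, where the Map1lc3b sequence runs on for several codons. Over their aligned coding sequences, Map1lc3a and Map1lc3b were identical at 280 of 366 bases (76.5%), and the longest identical run was 15 bases. Map1lc3a and Gabarapl1 shared 53.4% of 352 bases, and Map1lc3b and Gabarapl1 57.4% of 343. No window of 100 bases of Map1lc3a transcripts occurred in another annotated gene, whereas 2.87% of those of Map1lc3b also occurred in the loci Gm12727, Gm37485, Gm6054 and Gm6055.

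Compared per length of annotated exons, the 10 genes spanned a wide range of levels in this tissue. Gabarapl1 had the highest level, 246 ± 14.2 CPM per kb over 17 mice, and was followed by Sqstm1 with 114 ± 3.95, Map1lc3a with 75.7 ± 5.90 and Map1lc3b with 26.4 ± 1.51 CPM per kb. Becn1 (15.3 ± 0.683), Ulk1 (14.6 ± 1.02), Atg9a (12.5 ± 1.56) and Wipi2 (12.1 ± 0.537 CPM per kb) came next, and each overlapped its neighbour in this order across mice. Atg5 had 8.16 ± 0.643 CPM per kb. Atg7 had the lowest level, 3.57 ± 0.295 CPM per kb, and Gabarapl1 was 69.0 times higher on this scale. The order depends on the exon lengths, which join all annotated transcripts of a gene and were longest for Wipi2 (10543 bases) and Map1lc3b (7517 bases). Without division by length Map1lc3b was higher than Map1lc3a, whose exons span 1181 bases. Counts per mouse ran from 285 to 429 for Atg5, the gene with the fewest, and from 7236 to 10984 for Gabarapl1.

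**Figure D1:**
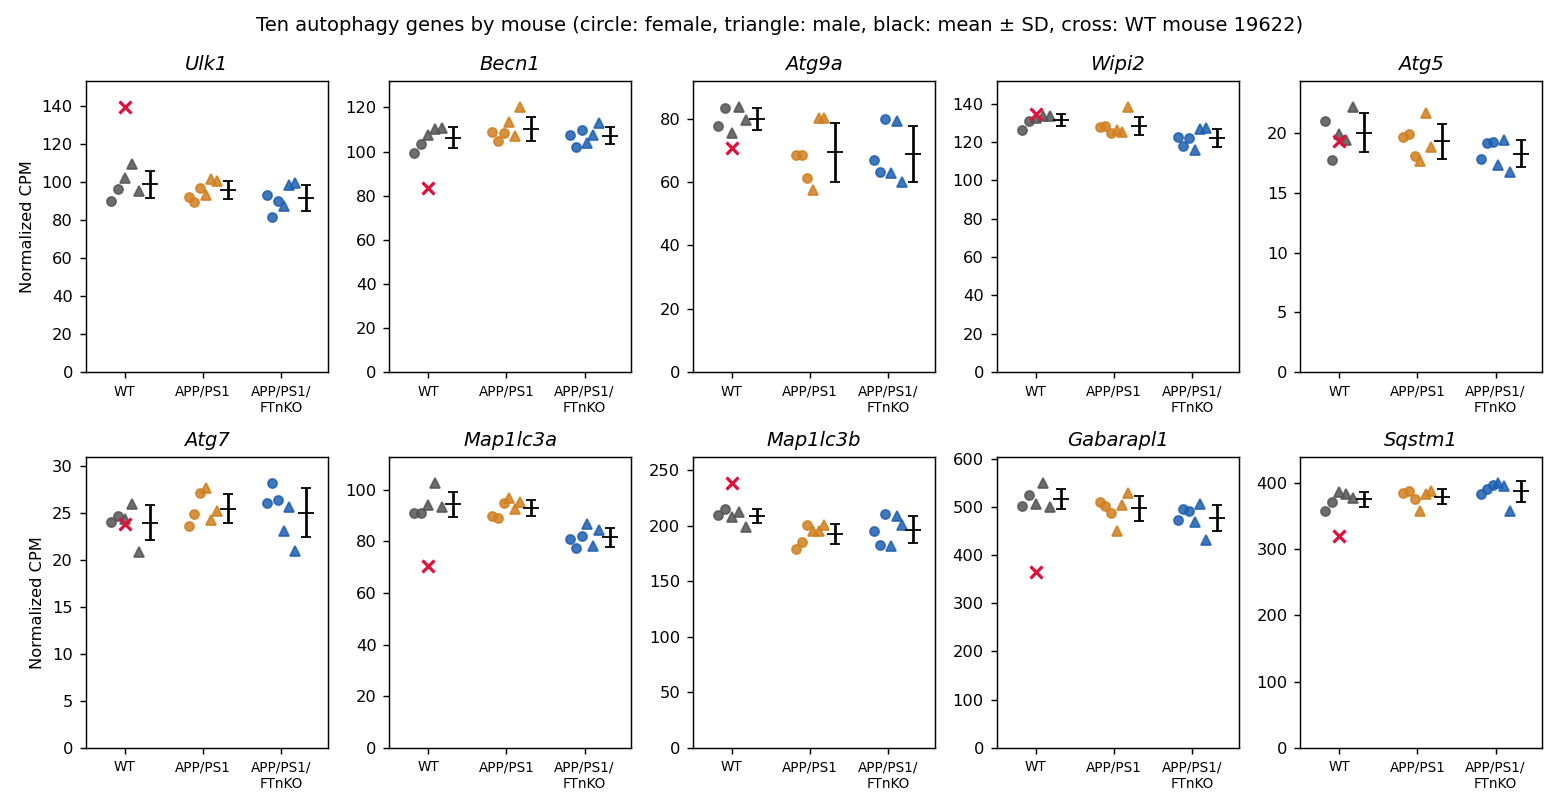
Normalized CPM (vertical axis, from 0) of the 10 genes in each mouse, by genotype (horizontal axis). Circles are females, triangles males, black marks the mean ± SD over 5 WT, 6 APP/PS1 and 6 APP/PS1/FTnKO mice, and the red cross is WT mouse 19622, which is not in the mean. The 6 APP/PS1/FTnKO mice lie below the other 2 groups for Map1lc3a, and the groups overlap for the other 9 genes.

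When the knockout was compared with APP/PS1, Map1lc3a passed the test and was lower in the knockout mice, and it was 1 of the 10 genes to do so. Over all tested genes 57 passed (0.327%), 32 of them higher and 25 lower. At an unadjusted p under 0.05 the count was also 1 of 10, against 11.5% of all genes, and 1 of 10 genes had groups that did not overlap, against 0.970% of all genes. The median log2 fold change of the 10 was -0.05 and that of all genes was -0.0016. The median size of the change was 0.049 for the 10 genes and 0.090 over all genes. The knockout was fitted lower for 8 of the 10, and for 8797 of all 17414 genes.

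Map1lc3a (ENSMUSG00000027602, chr2:155276297-155278073, plus strand, GRCm38) encodes LC3A, one of the proteins lipidated on the autophagosome membrane. Its level in the 5 WT mice was 90.8, 91.1, 94.2, 103 and 93.3 CPM. The 6 APP/PS1 mice had 89.8, 88.9, 94.9, 96.7, 92.7 and 95.2 CPM. The 6 APP/PS1/FTnKO mice had 80.9, 77.2, 82.2, 86.6, 78.2 and 84.4 CPM, so every knockout mouse was below every mouse of both other groups. The log2 fold change in APP/PS1/FTnKO against APP/PS1 was -0.19 (SE 0.039, 95% interval -0.271 to -0.108), a level that fell by 12.3% (adjusted p = 0.0471, edgeR). Against WT the log2 fold change was -0.20 (SE 0.041, interval -0.290 to -0.118, adjusted p = 0.0121), with the same knockout mice in both comparisons. APP/PS1 against WT gave -0.01 (interval -0.100 to 0.071, adjusted p = 0.91), and these groups overlapped. The log2 fold changes in the knockout against APP/PS1 were -0.19 in males and -0.19 in females.

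The call against APP/PS1 stood close to the threshold. When each of the 17 mice was left out in turn, the log2 fold change remained between -0.20 and -0.17, but the adjusted p rose above 0.05 in 16 of the 17 fits, where it was 0.0585 to 0.109. It stayed below, at 0.0431, only without WT mouse 19718. In these fits 10 to 81 genes passed in all. With all 18 mice the log2 fold change was -0.19 and the adjusted p was 0.579. DESeq2 on the 17 mice gave an adjusted p of 0.000766, limma-voom 0.0511 and a fit on the 2 genotypes alone 0.152. In edgeR with the RNA integrity number as a covariate it was 0.0299, with a log2 fold change of -0.18. Apart from the fits that left a mouse out, 4 of 10 other settings kept the call. The call against WT held in all 17 fits that left a mouse out, with adjusted p-values of 0.00979 to 0.0454, and was lost with all 18 mice (-0.14, adjusted p = 0.203).

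**Figure D2:**
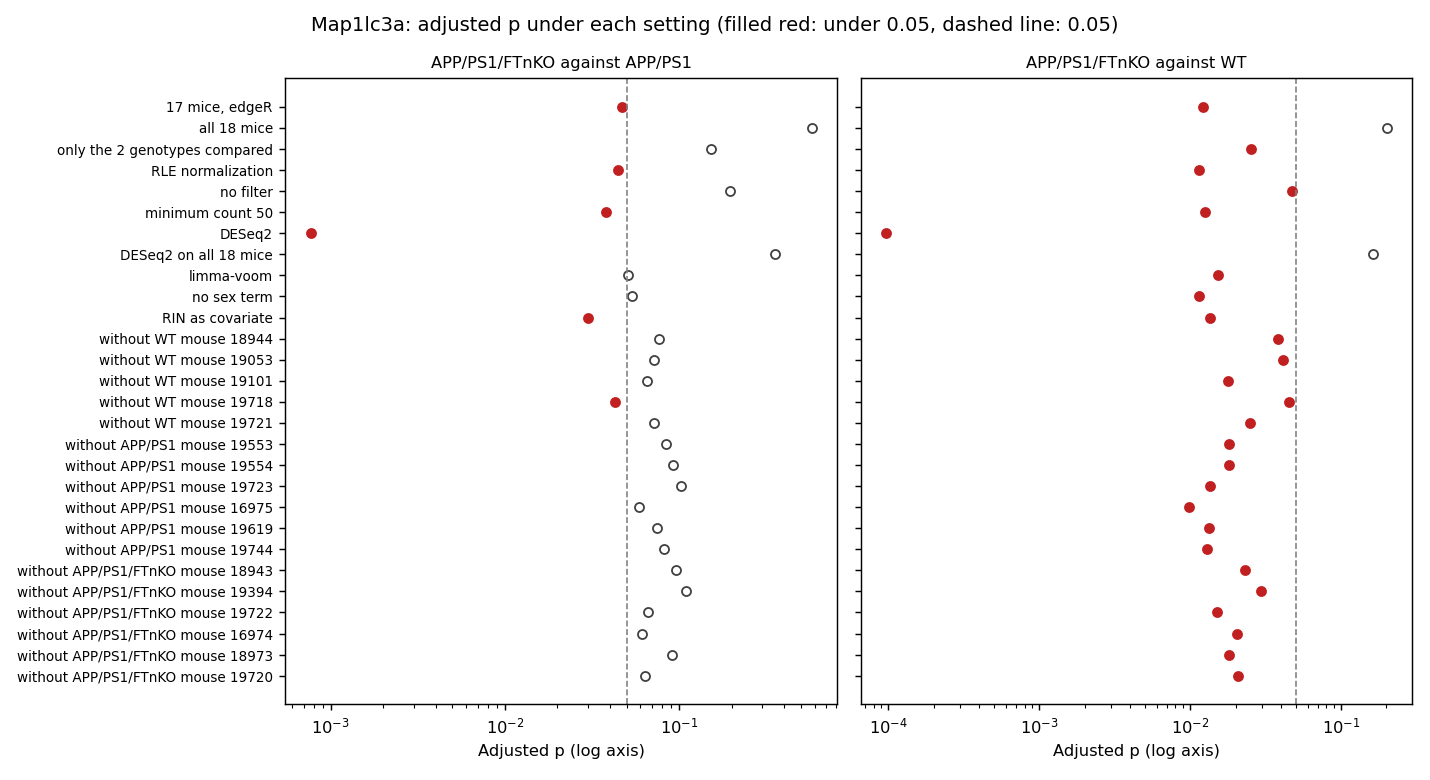
Adjusted p of Map1lc3a (horizontal axis, log scale) under each setting (vertical axis) for APP/PS1/FTnKO against APP/PS1 (left) and against WT (right). Filled red points are under 0.05, the dashed line. On the left 16 of the 17 fits that leave a mouse out lie to the right of the line, and on the right all 17 lie to its left.

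In bulk tissue, fewer cells of a type and less RNA per cell cannot be told apart. The summed level of the 7 excitatory neuron markers had a median of 4809 CPM in WT (range 4503 to 6265), of 5045 CPM in the APP/PS1 group (range 3888 to 6058) and of 3624 CPM in the knockout mice (range 3236 to 4995). None of the 7 passed the test between the knockout and APP/PS1 mice, and 1 of 7 passed against WT. Camk2a alone gave 71.0% of the counts of the list. It was 3574 ± 654 CPM in the APP/PS1 group and 2675 ± 542 CPM in the knockout mice (log2 fold change -0.42, adjusted p = 0.196), while the median log2 fold change of the 7 markers was -0.11 against APP/PS1 and -0.25 against WT. The part of these cells in the Map1lc3a result was not tested. The 6 interneuron markers summed to 809 to 1139 CPM in WT, to 834 to 1062 CPM in the APP/PS1 group and to 798 to 1110 CPM in the knockout mice, and none of them passed. Against APP/PS1 the median log2 fold change was -0.32 for activated and -0.24 for homeostatic microglia markers. It was -0.06 for astrocytes, 0.03 for oligodendrocytes and -0.008 for endothelium. No marker of these lists passed in that comparison, and their part in its results was not tested.

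The other ATG8 genes among the core components, Map1lc3b and Gabarapl1, did not pass in any comparison. Map1lc3b (chr8:121590361-121598760, plus strand), which encodes LC3B, the form most often used to follow autophagosomes, had a lowest, median and highest level of 199, 210 and 215 CPM in WT, 179, 195 and 201 CPM in APP/PS1 and 182, 198 and 210 CPM in APP/PS1/FTnKO mice. Both transgenic groups overlapped WT. Its log2 fold change was -0.12 in APP/PS1 against WT (interval -0.218 to -0.014, unadjusted p = 0.028, adjusted p = 0.295) and 0.03 in the knockout against APP/PS1 (interval -0.067 to 0.127). The share of Map1lc3a in the counts of Map1lc3a and Map1lc3b together was 29.7% to 32.6% in the 5 WT mice. It was 32.1% to 33.4% in the APP/PS1 group, while the knockout mice had 27.2% to 32.2%.

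Gabarapl1 (chr6:129533160-129542346, plus strand) encodes a GABARAP-type protein that is abundant in neurons. It was 499, 507 and 549 CPM (lowest, median and highest) in WT, 449, 503 and 529 CPM in APP/PS1 and 431, 482 and 506 CPM in APP/PS1/FTnKO mice. The groups formed overlapping ranges. Its log2 fold change was -0.06 in the knockout against APP/PS1, -0.06 in APP/PS1 against WT and -0.12 in the knockout against WT (interval -0.224 to -0.006, unadjusted p = 0.0392, adjusted p = 0.199). An annotated transcript on the opposite strand, 1700101I11Rik, covers 28.3% of its exonic length, and the sources used here do not say whether counting used strand.

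Sqstm1 (chr11:50199366-50210827, minus strand) encodes p62, a cargo receptor that binds ubiquitinated proteins and LC3 and is itself degraded with the cargo. Its levels were 359, 378 and 387 CPM (lowest, median and highest) in WT, 358, 384 and 388 CPM in APP/PS1 and 358, 393 and 400.1 CPM in APP/PS1/FTnKO mice. Its highest level across the 17 mice was 1.12 times the lowest, the smallest such ratio of the 10 genes. Within genotype and sex, the SD on the log2 scale was 0.0524, and it was smaller for Wipi2 (0.0470) and Map1lc3a (0.0519). The log2 fold changes were 0.03, 0.01 and 0.04 in the knockout against APP/PS1, APP/PS1 against WT and the knockout against WT. The 3 intervals together reached from -0.074 to 0.132, and a rise by more than 9.60% in the knockout against WT lay outside the interval.

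For the initiating genes, the groups lay close together. Ulk1 (chr5:110784488-110810097, minus strand), the kinase that mTORC1 inhibits, was 98.5 ± 7.31 CPM in WT, 95.4 ± 4.80 CPM in APP/PS1 and 91.6 ± 6.89 CPM in APP/PS1/FTnKO mice. The log2 fold change was -0.06 (interval -0.163 to 0.043, adjusted p = 0.69) in the knockout against APP/PS1 and -0.09 (interval -0.203 to 0.014, adjusted p = 0.292) against WT. Becn1 (chr11:101285952-101302286, minus strand), which encodes Beclin 1, was 106 ± 4.77, 110.4 ± 5.49 and 107 ± 3.93 CPM in the same order. The knockout against APP/PS1 gave a log2 fold change of -0.04 (interval -0.122 to 0.040), and it was 0.06 in APP/PS1 against WT (interval -0.023 to 0.148). Cntd1, on the opposite strand, overlaps 43.9% of the exonic length of Becn1.

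Of the genes that supply membrane, Atg9a (chr1:75180860-75192196, minus strand), which encodes the lipid-moving protein of small vesicles that seed the autophagosome, varied most from mouse to mouse. It was 79.9 ± 3.54 CPM in WT, 69.4 ± 9.37 CPM in APP/PS1 and 68.8 ± 8.77 CPM in APP/PS1/FTnKO mice. Of the 12 transgenic mice, 4 had 79.4 to 80.1 CPM, above the lowest WT mouse (75.5 CPM), and the other 8 had 57.4 to 68.6 CPM. Both genotypes contributed 2 mice to the first range and 4 to the second. The RNA integrity number (RIN) was 8.6 to 8.7 in the 4 mice and 7.6 to 8.6 in the 8, and with RIN as a covariate the log2 fold change in APP/PS1 against WT was -0.07. Without RIN in the fit the log2 fold change was -0.20 in APP/PS1 against WT (interval -0.398 to -0.007, unadjusted p = 0.0429, adjusted p = 0.341) and -0.21 in the knockout against WT (unadjusted p = 0.0332, adjusted p = 0.186). A noncoding gene on the same strand, Gm29253, shares 31.8% of the exonic length of Atg9a, and the sources used here do not say how reads from that stretch were assigned.

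Wipi2 (chr5:142627698-142670588, plus strand), whose protein binds the marked membrane and brings the ATG16L1 complex to it, was 131 ± 3.14 CPM in WT, 128 ± 4.92 CPM in APP/PS1 and 122 ± 4.61 CPM in APP/PS1/FTnKO mice. Its log2 fold change in the knockout was -0.07 against APP/PS1 (interval -0.148 to 0.005, adjusted p = 0.478) and -0.10 against WT (interval -0.181 to -0.020, unadjusted p = 0.0176, adjusted p = 0.138). It did not pass in either.

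The conjugation genes had the lowest levels. Atg5 (chr10:44268358-44364291, plus strand), part of the complex that directs the lipid to ATG8 proteins, was 20.1 ± 1.66 CPM in WT, 19.3 ± 1.46 CPM in APP/PS1 and 18.3 ± 1.13 CPM in APP/PS1/FTnKO mice. Its log2 fold change in the knockout was -0.08 against APP/PS1 (interval -0.222 to 0.065) and -0.13 against WT (interval -0.282 to 0.020, adjusted p = 0.294). Atg7 (chr6:114643097-114860614, plus strand), the activating enzyme of both conjugation steps, was 24.0 ± 1.90, 25.5 ± 1.59 and 25.0 ± 2.61 CPM. The fold change on the log2 scale was -0.03 (interval -0.176 to 0.121) in the knockout against APP/PS1 and 0.08 (interval -0.076 to 0.237) in APP/PS1 against WT. Counts were 285 to 601 per mouse over both genes.

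**Figure D3:**
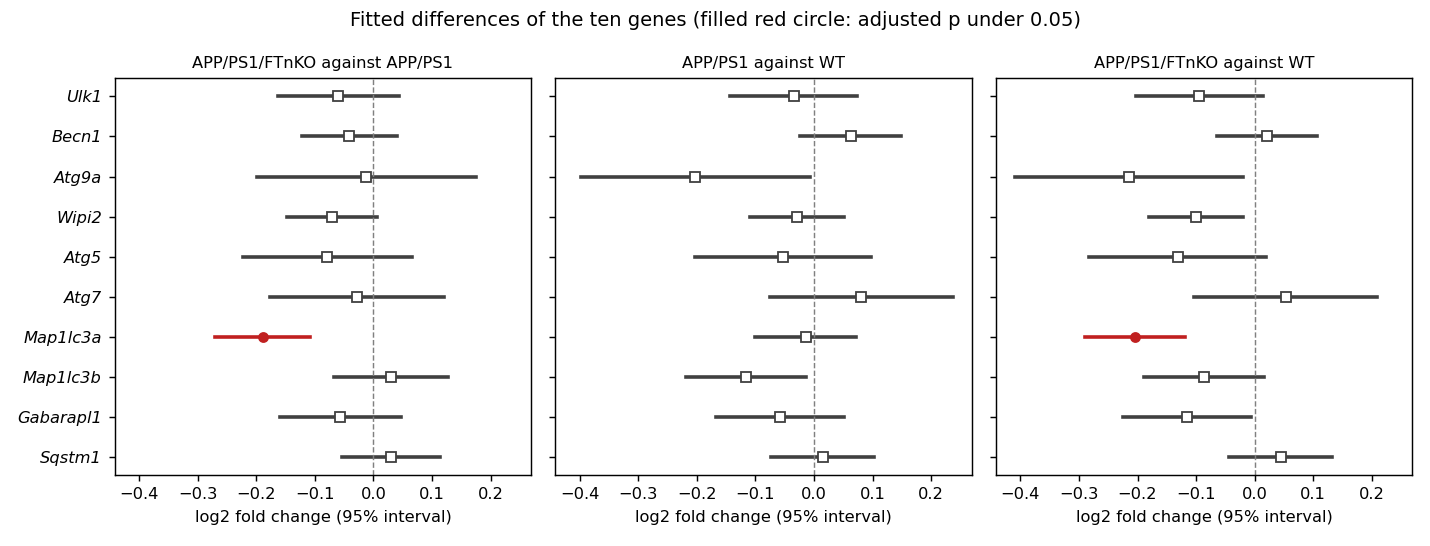
Log2 fold change (horizontal axis) with its 95% interval for the 10 genes (vertical axis) in the 3 comparisons. Filled red circles have an adjusted p under 0.05 in edgeR on 17 mice, and the dashed line is no difference. Map1lc3a is the only gene past the threshold, in the 2 comparisons that hold the knockout mice.

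Between APP/PS1 and WT mice, none of the 10 genes passed the test in edgeR or in DESeq2, against 261 of all tested genes in edgeR (1.50%), of which 230 were higher. At an unadjusted p under 0.05 there were 2 of the 10, Map1lc3b and Atg9a, both fitted lower, against 14.0% of all genes. The median RIN was 8.7 in WT and 8.2 in APP/PS1 mice, and with RIN as a covariate neither had such a p, with log2 fold changes of -0.07 for Map1lc3b (unadjusted p = 0.201) and -0.07 for Atg9a (unadjusted p = 0.42). None of the 10 had groups without overlap, against 2.40% of all genes. The median log2 fold change was -0.03 for the 10 and -0.0023 over all genes. Over the 10 genes the intervals reached at most from -0.398 to 0.237.

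When the knockout was compared with WT, 1 of the 10 passed, Map1lc3a, against 674 of all genes (3.87%). At an unadjusted p under 0.05 there were 4 of the 10, Map1lc3a, Wipi2, Gabarapl1 and Atg9a, all fitted lower, against 22.1% of all genes. With RIN as a covariate Gabarapl1 (-0.09, unadjusted p = 0.0832) and Atg9a (-0.14, unadjusted p = 0.103) no longer had such a p. Groups without overlap were found for 1 of the 10 and for 5.60% of all genes. The median log2 fold change was -0.10 for the 10 and 0.0053 over all genes. DESeq2 called 1 of the 10 as well, and 1304 of all genes.

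The wider autophagy list held 53 further genes, all of which were tested. In APP/PS1/FTnKO against APP/PS1 none of the 53 passed in edgeR, 1 passed in DESeq2 (Tfe3), which called 244 of all genes. In edgeR 9 of the 53 (16.98%) had an unadjusted p under 0.05, 4 higher and 5 lower, against 11.5% of all genes. The smallest p was that of Tfe3, a transcription factor that switches on lysosomal and autophagy genes and is also held back by mTORC1. Tfe3 was 47.0 to 53.4 CPM in APP/PS1 mice and 42.4 to 45.6 CPM in the knockout, groups that did not overlap, with a log2 fold change of -0.16 (SE 0.044, adjusted p = 0.133). Snap29, a SNARE protein of autophagosome fusion, had a log2 fold change of -0.27 (adjusted p = 0.22). Gabarapl2, another ATG8 gene, had -0.14 (adjusted p = 0.265). The median over the 53 genes was -0.02.

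In APP/PS1 against WT, none of the 53 passed in edgeR and 3 passed in DESeq2 (Nfe2l2, Gabarap and Epg5), which called 457 of all genes. In edgeR 9 of the 53 (16.98%) had an unadjusted p under 0.05, against 14.0% of all genes. Nfe2l2, the oxidative stress factor NRF2, was 14.3 ± 1.39 CPM in WT and 19.8 ± 2.98 CPM in APP/PS1 mice (log2 fold change 0.47, SE 0.12, adjusted p = 0.0503). Activated microglia markers moved in the same comparison, where 6 of 7 passed and their sum was 92.3 to 103 CPM in WT and 165 to 410 CPM in APP/PS1 mice, and their part in the Nfe2l2 value was not tested. Gabarap, a further ATG8 gene, was 103 to 109 CPM in WT and 115 to 128 CPM in APP/PS1 mice, without overlap (log2 fold change 0.16, adjusted p = 0.0849). Epg5, a tether for lysosomal fusion, was 71.7 to 79.6 CPM in WT and 56.9 to 69.9 CPM in APP/PS1 mice (-0.23, adjusted p = 0.0949).

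In APP/PS1/FTnKO against WT, 2 of the 53 passed in edgeR (3.77%), against 3.87% of all genes. DESeq2 called 4 of the 53 (Atg10, Atg101, Foxo3 and Rb1cc1) and 1304 of all genes. In edgeR 16 of the 53 (30.2%) had an unadjusted p under 0.05, against 22.1% of all genes. Cell type markers moved in the same comparison. The median log2 fold change of the 7 excitatory neuron markers was -0.25, with 1 of 7 called, and that of the 7 activated microglia markers was 1.95, with 6 of 7 called. Their part in the values below was not tested. Foxo3, a transcription factor that can raise the expression of autophagy genes, fell from 97.8 ± 2.17 CPM in WT to 83.0 ± 5.77 CPM in the knockout mice (log2 fold change -0.25, SE 0.046, adjusted p = 0.00755). Its level in APP/PS1 mice was 89.8 ± 5.08 CPM. The Foxo3 call held in all 17 fits that left a mouse out, and with all 18 mice the log2 fold change was -0.38 in edgeR (adjusted p = 0.0574) and -0.38 in DESeq2 (adjusted p = 0.0107). Atg10, the enzyme that joins ATG12 to ATG5, rose from 6.86 ± 0.621 CPM to 8.93 ± 0.808 CPM (log2 fold change 0.37, SE 0.096, adjusted p = 0.04). The Atg10 call was lost in 10 of the 17 fits that left a mouse out, where the adjusted p reached 0.104. In edgeR it was also lost with all 18 mice (0.0503), the 2 genotypes alone (0.0502), no filter (0.0822) and RIN as a covariate (0.0914), whereas DESeq2 on all 18 mice kept it (0.0138). The log2 fold change of Atg10 was 0.31 to 0.40 with a mouse left out and 0.33 to 0.38 under the other settings. Of the 53 genes, 37 were fitted lower and 16 higher, and the median was -0.04. Over all tested genes 8480 were fitted lower and 8934 higher. By role, all 5 genes of the ULK complex (Ulk1 included) and 7 of 8 of the lipid kinase complex (Becn1 included) were fitted lower. None of these 13 passed in edgeR, where Atg101 and Rb1cc1 of the ULK complex, both called in DESeq2, had adjusted p-values of 0.0583 and 0.06. Also fitted lower were 7 of 8 of the ATG9 and WIPI group, 4 of 5 ATG8 genes, 5 of 7 fusion genes, 7 of 12 cargo receptors, 6 of 11 conjugation genes and 3 of 7 transcription factors.

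Promoter sequences of RefSeq (GRCm38.p6) were at hand for 8 of the 10 genes, and not for Map1lc3a and Becn1. The E-box CACGTG, the core of the site bound by TFEB and TFE3, was searched on both strands of the 300 bases around the start and was found in 2 of the 8, against 7.15% of 32851 promoters. These stretches are shown with the E-box in capitals. The Atg5 match begins 14 bases and the Atg7 match 132 bases before the RefSeq start. For Atg7 that start lies 27999 bases inside the annotated gene, so the Atg7 stretch is not that of the outermost start, and the Wipi2 start lies 1886 bases inside. They lie at chr10:44268298-44268338 and chr6:114670937-114670996, both on the plus strand.
Atg5: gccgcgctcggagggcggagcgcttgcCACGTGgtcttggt
Atg7: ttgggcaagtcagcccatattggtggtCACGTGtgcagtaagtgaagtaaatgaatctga
The extended form TCACGTGA occurred in none of the 8 (0.974% of all promoters), and the FOXO motif GTAAACA in none (3.65%). The antioxidant response element TGACNNNGC occurred in 1, Map1lc3b (12.4%). These matches describe the letters only. Neither Atg5 nor Atg7 passed the test in any comparison.

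WT mouse 19622 lay outside the range of the other 5 WT mice for 8 of the 10 genes and outside that of all 17 mice for 6. Its Ulk1 level was 139 CPM against 81.2 to 109 CPM in the others. Map1lc3a was 70.3 CPM, Gabarapl1 365 CPM, Becn1 83.5 CPM and Sqstm1 319.5 CPM, all below every other mouse, and Map1lc3b was 238 CPM, above every other. The genes of the family thus moved in both directions in this library. With it in the fit, the log2 fold change of Map1lc3a in APP/PS1 against WT was 0.05 rather than -0.01, and none of the 10 genes passed in any comparison.

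None of the 10 genes passed the test for sex. Ulk1 had the smallest unadjusted p, with a log2 difference of males minus females of 0.11 (unadjusted p = 0.0187, adjusted p = 0.625). The genotype differences were compared between the sexes for the 10 genes in the 3 comparisons, and none of the 30 interactions passed in edgeR on 17 mice or on 18 mice, also at an unadjusted p under 0.05. WT had 2 females in the fit of 17.

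With genotype and sex removed, several of the genes varied together from mouse to mouse. Of 45 pairs, 3 passed a permutation test on Pearson's r of the residuals over 17 mice (100000 resamples, two-sided, adjusted over the 45 pairs), and 8 had an unadjusted p under 0.05. Gabarapl1 and Sqstm1 had r = 0.79 (permutation p = 0.00014, adjusted p = 0.00382), but Spearman's rho was 0.58 (permutation p = 0.0169, adjusted p = 0.152) and r was 0.52 without the 2 mice farthest from the median of Gabarapl1. Atg9a and Gabarapl1 had r = 0.79 (permutation p = 0.00017, adjusted p = 0.00382), rho = 0.73 (permutation p = 0.00112, adjusted p = 0.0423) and r = 0.76 without 2 mice. Becn1 and Wipi2 had r = 0.76 (permutation p = 0.00042, adjusted p = 0.0063), rho = 0.71 (permutation p = 0.00188, adjusted p = 0.0423) and r = 0.58 without 2 mice. With the RIN removed too, the 3 values were 0.85, 0.75 and 0.72, and another pair passed, Atg9a and Sqstm1, with r = 0.70 (permutation test, adjusted p = 0.0251) against 0.56 (adjusted p = 0.148) before. Map1lc3a had its strongest relation with Atg5, a negative one (r = -0.56, permutation p = 0.0197, adjusted p = 0.148). Residuals of a fit are not fully independent, which makes these p-values somewhat small, and all genes of a mouse share its dissection and library.

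**Figure D4:**
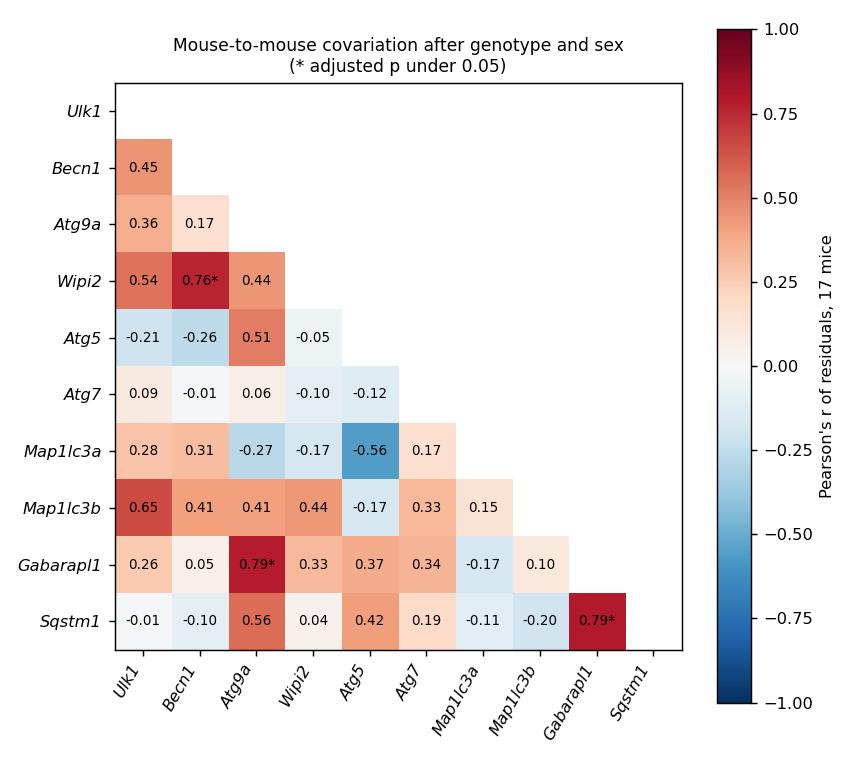
Pearson's r (color and number) between the residuals of each pair of the 10 genes over 17 mice, after genotype and sex were removed. The asterisk marks an adjusted p under 0.05, which is reached by 3 of the 45 pairs, with r of 0.79, 0.79 and 0.76, and the lowest r is -0.56.

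Across all 17414 tested genes, those with the most similar residuals over the 17 mice were named for each of the 10, as a description without a test. For Atg9a they were Snx13 (r = 0.98) and Cpeb3 (r = 0.97), the closest of all. For Gabarapl1 they were Rab7, which is also on the autophagy list as a small GTPase of lysosomal fusion (r = 0.95), and Immt (r = 0.94). Sqstm1 was closest to Rragb (r = 0.95) and Nudc-ps1 (r = 0.91). Map1lc3a was closest to Rps27l (r = 0.85) and Tmem203 (r = 0.83), and Map1lc3b to Ccdc3 (r = 0.89) and 4833422C13Rik (r = 0.87). For Ulk1 the genes were Babam1 (r = 0.86) and Ttbk1 (r = 0.84), for Becn1 Gm33045 (r = 0.86) and Arpc5 (r = 0.84), and for Wipi2 Fbxl17 (r = 0.88) and Cxadr (r = 0.85). Atg5 was closest to Mpped2 (r = 0.85) and Ssbp2 (r = 0.85), and Atg7 to Rbm8a (r = 0.87) and Scnm1 (r = 0.81).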

How the data were processed

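Frontal cortex mRNA of 18 mice was sequenced as stranded libraries. The authors trimmed reads (Trimmomatic 0.33), aligned them to GRCm38 (HISAT2 2.1.0) and used featureCounts; they deposited raw counts, 1 column per mouse. The submitters' processing notes name both mm10 and mm9. The sources used here give no version, annotation, strand or multi-mapping setting for featureCounts. Counts were tested in edgeR 4.0.16 (R 4.3.3; TMM, genes kept by filterByExpr at a minimum count of 10, quasi-likelihood test, 3 genotypes and sex in 1 fit, Benjamini-Hochberg over 17414 genes, threshold 0.05) on 17 mice. Intervals are at 95% for the fitted log2 fold change, with an error taken from the spread between mice. Tried beside it were limma-voom (limma 3.58.1), DESeq2 1.42.0, RLE scaling, other filters, no sex term, RIN as covariate, other sets of mice and each mouse left out; the functions were tested on simulated data. Replicates are mice, with no number shared between genotypes. The members and lists were chosen with earlier results of these data known. Named were all 10 genes, called list genes or else the 3 with the smallest p, the 2 most alike genes for each of the 10, and App, Prnp and Fntb as label checks. GENCODE vM21 on GRCm38 gave positions and matched 99.5% of genes.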

Additional observations from a re-analysis of the deposited data

Results flagged for a closer look

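Within each group, a mouse was listed when its gap to the nearest other mouse exceeded Dixon's 95% value. Of 30 groups (10 genes in 3 genotypes, 17 mice), 1 was listed: Wipi2 in APP/PS1 mouse 19744, at 138.0 CPM against 125 to 128 CPM in the other 5. Chance lists about 1 in 20 groups. With WT mouse 19622 included, 2 of its 10 WT groups were listed, Map1lc3a at 70.3 CPM against 90.8 to 103 CPM and Gabarapl1 at 365 CPM against 499 to 549 CPM. This is the library whose cerebellar markers were high.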

How the results depend on the processing

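No paired analysis was run, because the sources used here do not say which of the mice shared a litter. In APP/PS1/FTnKO against APP/PS1 the 1 call among the 10 genes became 0 with all 18 mice, the 2 genotypes alone, no filter, DESeq2 on 18 mice, limma-voom and no sex term, and 0 to 1 with a mouse left out. Against WT it became 0 with all 18 mice in edgeR and DESeq2. Of the 53 further list genes, APP/PS1/FTnKO against APP/PS1 gave 1 in DESeq2 (Tfe3) and 2 with RIN (Atg4a, Snap29) rather than 0. APP/PS1 against WT gave 1 with RLE, no filter or no sex term (Nfe2l2) and 1 with DESeq2 on 18 mice (Epg5), rather than 0. It gave 3 in DESeq2 and 0 to 1 with a mouse left out, where the gene was Nfe2l2. APP/PS1/FTnKO against WT gave 0 with 18 mice in edgeR, 1 with no filter or RIN, 4 in DESeq2 and 1 to 4 with a mouse left out, rather than 2. The gene lost with no filter or RIN was Atg10. No count over all genes is given here for RIN, RLE, no filter, no sex term or the fits of 18 mice. List counts under these settings therefore cannot be set against a share of all genes. Correlated pairs fell from 3 to 1 without the 2 farthest mice and were 4 with the RIN removed.

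Signs reversed for genes near 0. In APP/PS1 against WT the log2 fold change was 0.016 for Ulk1, 0.0029 for Wipi2 and 0.0079 for Atg5 with RIN, and with 18 mice 0.047 (edgeR) and 0.042 (DESeq2) for Map1lc3a and 0.019 and 0.015 for Gabarapl1. With a mouse left out it ran from -0.027 to 0.013 for Map1lc3a and from -0.0039 to 0.034 for Sqstm1. In APP/PS1/FTnKO against APP/PS1 it ran from -0.066 to 0.034 for Atg9a and from -0.058 to 0.017 for Atg7. Of 300 gene values under other settings, 285 kept their direction and their side of the threshold, as did 485 of 510 with a mouse left out. The cause was not tested. Atg5 and Atg7 had the lowest counts of the 10, and Atg9a the largest SE.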
